A study of Mus musculus with 20 samples.

Results

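The transcripts of 9 genes that encode B cell transcription factors were followed through mouse bone marrow and kidney after long oxaliplatin treatment. The 9 genes, Tcf3, Ebf1, Foxo1, Pax5, Ikzf1, Ikzf3, Bach2, Pou2af1 and Lef1, were taken by symbol from the count tables of both tissues, which list 55486 genes after repeated lines are counted once. C57BL/6 mice, 10 weeks old at the start, received either 10 mg/kg oxaliplatin in 5% dextrose by intraperitoneal injection or the same volume of 5% dextrose alone over 8 weeks. Bone marrow (taken from tibia and femur) and kidney each gave 5 vehicle-treated and 5 oxaliplatin-treated libraries, 20 in all, and each library is labelled as a biological replicate. The question was how the factors that make and keep a cell a B cell stood in treated marrow, with the kidney, which holds few B cells, as the comparison tissue.

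B cells arise in the marrow through a relay of transcription factors. The E protein made by Tcf3 and the early B cell factor made by Ebf1 open the B lineage programme together with Foxo1, and Pax5 then commits the cell to the lineage and shuts out other fates. Ikaros (Ikzf1) and Aiolos (Ikzf3) act with them from the earliest lymphoid cells to the mature B cell, while Bach2 and the coactivator made by Pou2af1 work mainly in later B cells, where Bach2 holds back plasma cell differentiation.

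The members do not share a chromosomal neighbourhood. In GRCm38, with GENCODE gene models, Pax5 lies on the minus strand of chromosome 4 at 44524757 to 44710487 and Bach2 on the plus strand of the same chromosome at 32238804 to 32586108. Ebf1 (44617317 to 45008091, plus), Ikzf1 (11685003 to 11772926, plus) and Ikzf3 (98464902 to 98546031, minus) are on chromosome 11. Foxo1 (52268336 to 52353221) and Lef1 (131110471 to 131224356) are on the plus strand of chromosome 3, Tcf3 is on the minus strand of chromosome 10 at 80409514 to 80433647, and Pou2af1 is on the plus strand of chromosome 9 at 51213708 to 51240080. All 9 are protein-coding genes.

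The sequences just upstream of the RefSeq start sites are shown for the pair whose transcripts fell most in treated marrow, Pax5 and Bach2, and for the pair that fell least, Ikzf1 and Foxo1. Each is the 250 bases before the start, read 5′ to 3′ on the gene's own strand from the GRCm38.p6 RefSeq table. They are chr4:44710695-44710944 (minus strand) for Pax5, chr4:32417185-32417434 (plus) for Bach2, chr11:11685675-11685924 (plus, the first of 2 listed starts) for Ikzf1 and chr3:52268087-52268336 (plus) for Foxo1. The Pax5, Bach2 and Ikzf1 stretches hold 0 annotated exon bases, and that of Foxo1 holds 1. The Bach2 and Ikzf1 stretches lie inside the annotated span of their own gene. Capitals mark a match to the EBF core.
Pax5: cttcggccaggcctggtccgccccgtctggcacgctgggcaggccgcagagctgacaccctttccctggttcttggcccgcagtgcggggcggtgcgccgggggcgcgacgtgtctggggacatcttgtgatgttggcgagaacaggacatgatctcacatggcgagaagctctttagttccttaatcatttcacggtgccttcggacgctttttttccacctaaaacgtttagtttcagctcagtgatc
Bach2: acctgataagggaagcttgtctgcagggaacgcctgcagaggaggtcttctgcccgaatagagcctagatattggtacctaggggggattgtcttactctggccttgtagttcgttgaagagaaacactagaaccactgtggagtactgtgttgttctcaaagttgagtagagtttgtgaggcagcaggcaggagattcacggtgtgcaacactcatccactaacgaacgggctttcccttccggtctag
Ikzf1: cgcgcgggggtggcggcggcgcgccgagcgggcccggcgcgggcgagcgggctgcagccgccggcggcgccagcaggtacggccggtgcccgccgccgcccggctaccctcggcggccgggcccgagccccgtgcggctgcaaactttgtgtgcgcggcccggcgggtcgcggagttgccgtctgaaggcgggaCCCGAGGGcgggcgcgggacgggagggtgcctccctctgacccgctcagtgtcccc
Foxo1: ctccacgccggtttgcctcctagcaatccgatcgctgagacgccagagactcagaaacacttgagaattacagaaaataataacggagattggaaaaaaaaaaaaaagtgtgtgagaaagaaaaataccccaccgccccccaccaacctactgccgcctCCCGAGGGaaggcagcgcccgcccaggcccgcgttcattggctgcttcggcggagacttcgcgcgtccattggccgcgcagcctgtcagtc

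The search covered both strands for motifs of the factors themselves, namely the E protein sites (CAGGTG, and in a second form CAGCTG), the EBF core CCCNNGGG, the Ikaros core TGGGAA, the FOXO site GTAAACA, the TCF/LEF sites (CTTTGAA, and in a second form CTTTGAT) and the octamer ATGCAAAT bound by the POU proteins that Pou2af1 assists. The RefSeq table held 13 such stretches for 8 members, and Ikzf3 had none. CCCGAGGG, which reads as the EBF core, began 91 bases before the Foxo1 start and 56 bases before the first Ikzf1 start. The only other matches were an Ikaros core before the second Ebf1 start and a CAGCTG before the third Lef1 start. Pax5, Bach2, Tcf3 and Pou2af1 held no match to any of these letters in this window. The EBF core occurs in 11.8% of all 32851 stretches of the same length, the Ikaros core in 21.6% and CAGCTG in 13%, so these matches are a description of the sequence and no more.

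The marrow libraries held 30660153 to 41140527 counts and the kidney libraries 24393007 to 30925430. Levels are given as CPM, counts in proportion to the total of each library, after TMM scaling, which corrects for composition. A count of 3 corresponded to between 0.0668 and 0.130 CPM across the libraries. A gene was said to rise or fall when edgeR's quasi-likelihood test gave a Benjamini-Hochberg adjusted p under 0.05 over all genes tested, and was called when the change was also greater than 1.5-fold. In marrow 22363 genes were tested. With the threshold on p alone 16.8% of them were lower and 16.3% higher after oxaliplatin, and 11.8% were called lower and 11.6% higher (23.3% in either direction). The treatment therefore moved a large part of the marrow transcriptome in both directions, and the median log2 fold change of all genes was -0.04. Of the 5221 genes called in marrow 49.6% were higher, and with library size alone in place of TMM 63.4% of the called genes were higher.

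All 9 factors fell in treated marrow, and 8 of them were called lower, against the 11.8% of all genes called in that direction. Foxo1 fell by less than 1.5-fold. The call of Ikzf1 rested on a log2 fold change of -0.60, just past 1.5-fold, and 7 factors were called when vehicle replicate 4 (-0.56) or treated replicate 1 (-0.58), 3 (-0.56) or 4 (-0.54) was left out, and with library size alone (-0.45), DESeq2 (-0.56), its size factors (-0.56) or without hemoglobin genes (-0.57). Its adjusted p was at most 0.00407 in these fits. The falls were far from equal. Bach2 and Pax5 dropped to 13.3% and 14.2% of their vehicle level as fitted, whereas Ikzf1 and Foxo1 kept 66.1% and 70.5%. In 7 of the 9 genes every oxaliplatin-treated library lay below every vehicle-treated library, a separation in this direction that 13.5% of all tested genes showed. Whole marrow is a mixture, so fewer B cells and less RNA of a gene per B cell cannot be told apart in these values.

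**Figure D1:**
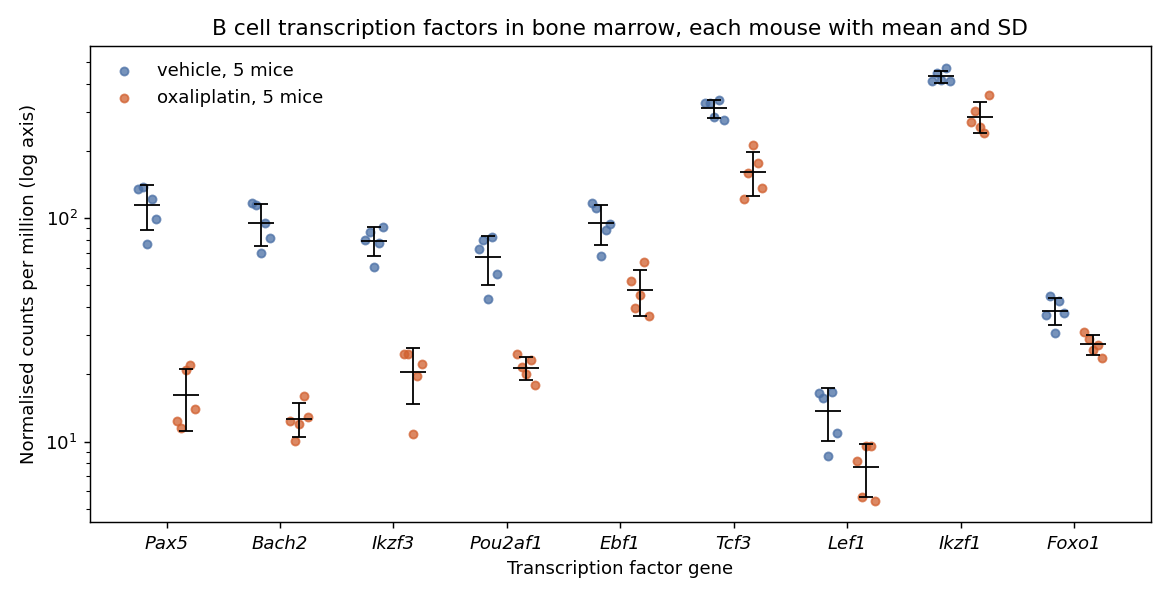
Normalised CPM of the 9 factor genes in bone marrow on a log axis, with 1 point for each of the 5 vehicle-treated and 5 oxaliplatin-treated mice and the mean ± SD in black. The Pax5, Bach2, Ikzf3, Pou2af1, Ebf1, Tcf3 and Ikzf1 groups do not overlap, while Lef1 and Foxo1 overlap.

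Among the genes that open the B lineage programme, Tcf3, which encodes the E12 and E47 E proteins, was the most abundant per kilobase of exon in vehicle-treated marrow. The vehicle-treated mice measured 327.4, 328.1, 285.2, 339 and 275.2 CPM in replicates 1 to 5, and the oxaliplatin-treated mice 122.4, 159.1, 213.3, 176.8 and 137.1 CPM. The groups did not overlap, and the highest treated value was in replicate 3. Tcf3 fell from 311 ± 28.7 to 162 ± 35.5 CPM (SD, n = 5 each), a log2 fold change of -0.94 (SE 0.14, adjusted p = 2.0e-04).

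Ebf1, the pioneer factor of the B lineage, measured 116.4, 110.7, 67.4, 88.9 and 94.2 CPM in the vehicle-treated mice. The treated mice gave 52.6, 39.4, 45.5, 63.7 and 36.3 CPM. The 2 nearest libraries, vehicle replicate 3 and treated replicate 4, were 67.4 and 63.7 CPM, so the groups stood apart by a small margin. The log2 fold change was -1.01 (SE 0.17, adjusted p = 5.5e-04), a 2.01-fold fall.

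Foxo1, a forkhead factor that drives the recombinase genes and Il7r in B cell progenitors and is held in check by PI3K signalling, was at 37.1, 44.9, 30.8, 42.6 and 37.7 CPM with vehicle. After oxaliplatin it was at 30.9, 28.9, 25.8, 27.0 and 23.6 CPM. The highest treated library and the lowest vehicle library differed by 0.1 CPM, 30.88 against 30.78, and the groups overlapped there. Foxo1 fell by 0.50 on the log2 scale (SE 0.11, adjusted p = 0.00424), the smallest change of the 9.

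Pax5, which commits cells to the B lineage, fell much further. The vehicle-treated mice measured 135.5, 138.5, 76.6, 121.6 and 99.6 CPM and the treated mice 12.3, 11.5, 21.0, 21.9 and 14.02 CPM. The groups were widely separated, and within the treated group replicates 3 and 4 were the highest. The mean fell from 114 ± 26.1 to 16.2 ± 4.95 CPM (SD, n = 5 each), and the log2 fold change was -2.82 (SE 0.22, adjusted p = 1.9e-06). Its 95% interval, -3.31 to -2.33, lay wholly below those of Tcf3 (-1.25 to -0.64), Ebf1 (-1.38 to -0.64) and Foxo1 (-0.75 to -0.26).

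Ikzf1 and Ikzf3 encode closely related zinc finger proteins, and their falls differed in size. Ikzf1 measured 409.6, 445.5, 416.1, 472.2 and 411.3 CPM with vehicle and 270.4, 302.4, 255.4, 241.3 and 355.5 CPM with oxaliplatin. Its fall was 1.51-fold (log2 fold change -0.60, SE 0.11, 95% interval -0.84 to -0.35, adjusted p = 0.00125), and treated replicate 5 lay nearest to the vehicle group. Ikzf1 is also transcribed in many non-B blood cells, whereas Ikzf3 is centred on lymphocytes. Any part of this in the difference between the falls was not tested.

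Ikzf3 measured 79.5, 86.5, 60.7, 77.5 and 91.7 CPM with vehicle, and treated marrow gave 24.7, 24.7, 10.8, 19.6 and 22.3 CPM. Treated replicate 3 was the lowest for Ikzf3, although it was among the 2 highest for Pax5. The fall was 3.88-fold (log2 fold change -1.95, SE 0.20, adjusted p = 1.2e-05), and its 95% interval, -2.39 to -1.52, lay wholly below that of Ikzf1.

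Bach2, the repressor that keeps B cells from becoming plasma cells, had the deepest fall. Vehicle-treated marrow held 116.8, 114.3, 69.8, 95.2 and 81.8 CPM and treated marrow 12.4, 10.0, 12.0, 16.0 and 12.9 CPM. The treated libraries sat close together and well below the vehicle group. The mean fell from 95.6 ± 20.3 to 12.7 ± 2.16 CPM (SD, n = 5 each), 7.54-fold (log2 fold change -2.91, SE 0.17, adjusted p = 1.2e-07). The intervals of Bach2 (-3.27 to -2.56) and Pax5 overlapped, and their difference was not tested.

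Pou2af1, which encodes the B cell coactivator OBF-1 of the octamer-binding proteins, measured 72.5, 79.6, 43.3, 82.5 and 56.3 CPM with vehicle. It was at 24.6, 21.6, 20.1, 23.1 and 17.9 CPM with oxaliplatin. The treated values again lay in a narrow band below all vehicle values. The change was 3.12-fold lower (log2 fold change -1.64, SE 0.17, adjusted p = 9.5e-06).

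Lef1, a nuclear effector of Wnt signalling found in early B cells and in T cells, was the least abundant of the set per kilobase of exon. It measured 16.5, 15.7, 8.63, 16.8 and 11.0 CPM with vehicle and 8.18, 5.64, 9.58, 9.59 and 5.45 CPM with oxaliplatin. Vehicle replicate 3 lay below the 2 highest treated libraries, replicates 3 and 4, so the groups overlapped. Lef1 fell by 0.83 on the log2 scale (SE 0.23, 95% interval -1.32 to -0.35, adjusted p = 0.0118), the least certain change among the 9. With the level of Y-linked genes as a covariate it was -0.57 with an adjusted p of 0.084 and no longer passed. Y-linked counts were present in all 20 libraries, so this covariate does not divide them by sex.

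Per kilobase of annotated exon, the scale on which genes can be set beside each other, vehicle-treated marrow held Tcf3 at 77.0 and Ikzf1 at 74.6 CPM per kb, whose ranges overlapped. Pou2af1 followed at 26.2 CPM per kb. Pax5 (12.9), Ebf1 (9.79), Bach2 (9.62) and Ikzf3 (9.04 CPM per kb) then lay close together, and each neighbouring pair in that run overlapped. Foxo1 at 4.45 and Lef1 at 1.56 CPM per kb were lowest. After oxaliplatin Ikzf1 (49.3) and Tcf3 (40.0) still led, with overlapping ranges, followed by Pou2af1 at 8.41 and Ebf1 at 4.87 CPM per kb. Foxo1 (3.14), Ikzf3 (2.34), Pax5 (1.82), Bach2 (1.27) and Lef1 (0.875 CPM per kb) came next, each overlapping the one after it, so that Pax5 went from the fourth place to the seventh.

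Because the falls were unequal, every factor was set against the mean log2 CPM of 4 B cell surface genes, Cd79a, Cd79b, Cd22 and Cd72. Cd79a, Cd79b and Cd72 are also among the known targets of the factors. The reference may therefore fall with the factors, and it cannot separate B cell content from the level per B cell. All 4 surface genes fell in treated marrow, with a median log2 fold change of -2.23 and a range from -3.26 (Cd72) to -1.09 (Cd22). Because this reference fell, a gene that did not change would also stand higher on the relative scale. The median log2 fold change of all tested marrow genes was -0.04. The share of all genes that stood higher was not computed, so standing higher is not shown to be particular to the factors. On that relative scale, 6 factors were higher in every treated library than in every vehicle library, 1 was lower in every treated library, and 2 overlapped. An exact two-sided permutation test over the 252 divisions of the 10 libraries cannot give less than 0.00794, and the values below are not adjusted for the 9 comparisons.

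Bach2 was lower than these surface genes by 0.71 log2 units (exact permutation p = 0.00794, lower in 5 of 5 treated libraries). Pax5 was 0.65 log2 units lower (exact permutation p = 0.0159), but its groups overlapped, and treated replicates 3 and 4 lay within or next to the vehicle range. Without vehicle replicate 1 or 2 the difference for Pax5 was -0.59 (exact permutation p = 0.0635) or -0.64 (0.0556). Ikzf3 was 0.19 log2 units higher with overlapping groups (exact permutation p = 0.429), and 0.38 without treated replicate 3 (0.0317).

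These differences depended on which surface genes served as the reference, because the 4 genes fell unequally. With Cd22, the inhibitory receptor that fell least, left out of the reference, Pax5 was -0.29 (exact permutation p = 0.278) and Bach2 -0.35 (0.0714), and neither passed. With Cd72, the receptor that fell most, left out, Pax5 was -1.01 and Bach2 -1.07 (exact permutation p = 0.00794 for each), and Ikzf3 turned to -0.17 (0.444). No firm place below or level with the surface genes can therefore be given to Pax5, Bach2 or Ikzf3.

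The other 6 all stood higher relative to the surface genes, and each reached the smallest p the exact permutation test allows. Pou2af1 was higher by 0.58 log2 units, but by 0.23 without Cd72 in the reference (exact permutation p = 0.0556) and by 0.18 with the median of the 4 genes as the reference (0.183). Ebf1 was higher by 1.18, Tcf3 by 1.22 and Lef1 by 1.36, and Ikzf1 at 1.58 and Foxo1 at 1.69 log2 units were higher still. These 5 passed with each of the 4 genes left out of the reference in turn. The same reference was subtracted from every factor, so the order of these differences is that of the fold changes themselves. It ran from Bach2 and Pax5 at the low end to Ikzf1 and Foxo1, of which most of the transcript remained. The factors that fell least are also transcribed outside the B lineage, and the share of their transcripts that came from B cells was not measured.

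**Figure D2:**
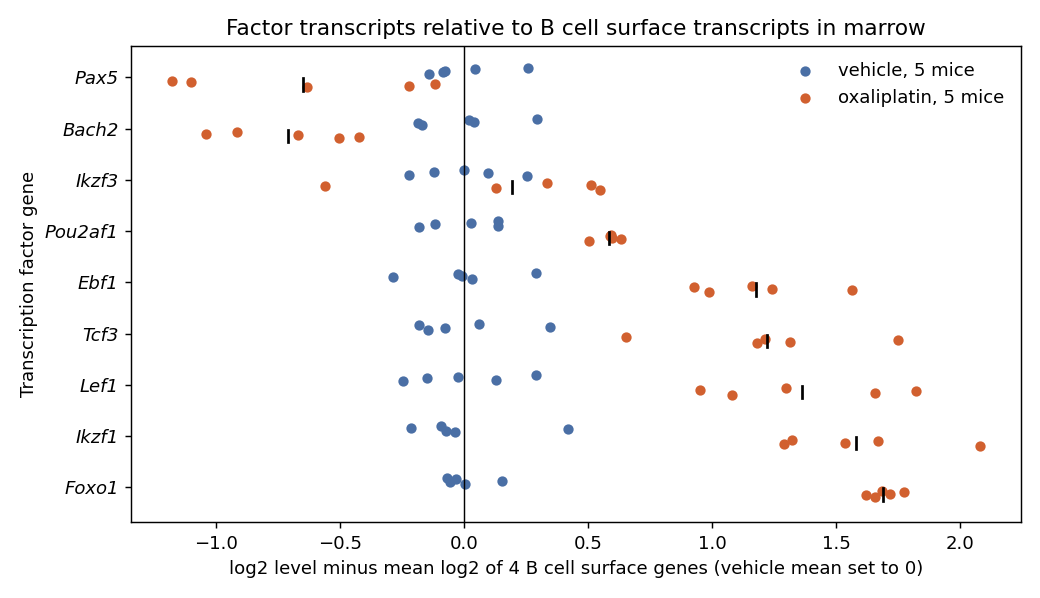
Each factor's log2 level in marrow minus the mean log2 level of Cd79a, Cd79b, Cd22 and Cd72, with the vehicle mean of each factor set to 0, 1 point per mouse and a black tick at the mean of the 5 oxaliplatin-treated mice. Bach2 lies wholly to the left of its vehicle points, Pax5 and Ikzf3 overlap theirs, and the other 6 factors lie wholly to the right.

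The treated mice were not alike in their early B cell transcripts. Vpreb1 and Igll1, which encode the surrogate light chain of pro-B and pre-B cells, Rag1, which encodes a subunit of the V(D)J recombinase, and Dntt, the terminal transferase of pro-B cells, were near 0 in treated replicates 1, 2 and 5 and well above it in replicates 3 and 4. Vpreb1 measured 0.173, 0, 7.95, 5.21 and 0.270 CPM in treated replicates 1 to 5, against 3.15 to 9.66 CPM with vehicle. Igll1 measured 0.0576, 0.157, 11.6, 8.46 and 0.485 CPM, against 6.21 to 17.6 CPM. Replicates 3 and 4 thus lay inside the vehicle range for both genes, and the other 3 libraries lay far below it.

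Rag1 measured 0, 0.219, 14.6, 8.17 and 0.377 CPM in the treated mice and 29.5 to 69.8 CPM with vehicle, so that replicates 3 and 4 retained part of it. Dntt measured 0.461, 1.54, 29.0, 14.1 and 1.54 CPM, against 17.5 to 32.2 CPM with vehicle. Of the 7 early B cell genes examined (Vpreb1, Vpreb2, Igll1, Rag1, Rag2, Il7r and Dntt), Rag1, Rag2 and Il7r fell and the other 4 did not pass. Over all tested genes 16.8% were lower on p alone. The summed level of the 7 genes ranged from 83.0 to 172 CPM with vehicle and from 13.1 to 72.9 CPM with oxaliplatin.

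Of the factors, Pax5 at 18.4% and 19.2% and Lef1 at 69.9% and 70% of the vehicle mean were highest in treated replicates 3 and 4. Tcf3 was highest in the same 2 mice, at 68.6% and 56.9%. Ikzf3, at 13.7% and 24.8%, was lowest in them, as were Ikzf1, at 59.3% and 56%, and Ms4a1, the CD20 gene of mature B cells, at 8.53% and 14.5% of the vehicle mean. Il7r, which encodes a chain of the interleukin 7 receptor, did not follow the other early genes and measured 21.6% and 33.1% of the vehicle mean in these mice against 34.2% to 37.4% in the other 3. These are values of single mice, which the labels do not set apart, and no test was made between them.

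**Figure D3:**
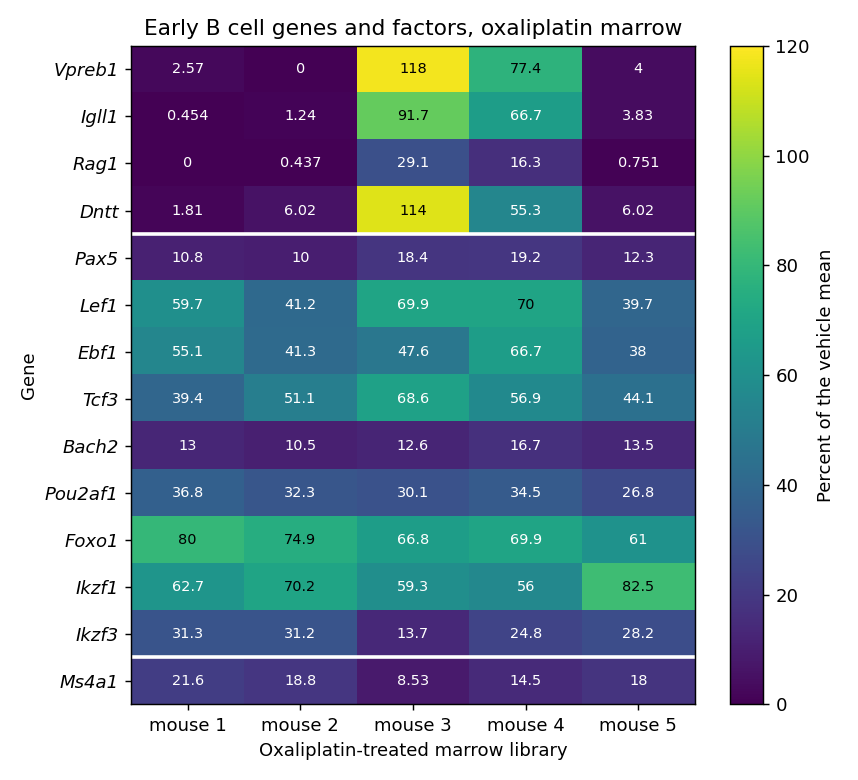
Level of early B cell genes (top rows), the 9 factors (middle rows) and Ms4a1 (bottom row) in each of the 5 oxaliplatin-treated marrow libraries, as a percent of the mean of the 5 vehicle-treated libraries. Vpreb1, Igll1 and Dntt are at 55.3% to 118% in mice 3 and 4 and at 6.02% or less in mice 1, 2 and 5, while Pax5 stays between 10% and 19.2% in all 5.

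With treated replicates 3 and 4 left out together, a choice made after these values were seen, all 9 factors still fell. Pax5 was then at -3.18 (SE 0.21), Tcf3 at -1.16 (SE 0.11), Lef1 at -1.09 (SE 0.23) and Ikzf3 at -1.73 (SE 0.12) on the log2 scale. Ikzf1, at -0.48 (SE 0.10), was no longer past 1.5-fold, which left 7 factors called, and 5130 genes in all were called against 5221.

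Among the genes these factors are known to switch on, most fell. Of 13 such genes (among them Cd79a, Cd79b, Blnk, Cr2, Fcer2a and Cxcr5, with Rag1, Rag2, Vpreb1, Vpreb2, Igll1 and Il7r shared with the early B cell genes and 3 with the surface genes), 10 fell, 0 rose and 3 did not pass, with a median log2 fold change of -1.62, where 16.8% of all tested genes were lower on p alone. Blnk, the adaptor of the B cell receptor, fell by 1.26 (SE 0.20, adjusted p = 3.1e-04), and Cxcr5, a homing receptor of mature B cells, by 1.55 (SE 0.23, adjusted p = 2.0e-04). Vpreb1, Vpreb2 and Igll1 were the 3 that did not pass.

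Other regulators of the B lineage were mixed. Of 15 examined, 6 fell, 2 rose and 7 did not pass, where 16.8% of all tested genes were lower and 16.3% higher on p alone. Spib, an Ets factor of mature B cells and plasmacytoid dendritic cells, fell deepest, from 106 ± 25.5 to 9.15 ± 1.21 CPM (log2 fold change -3.53, SE 0.18, adjusted p = 4.9e-08). Irf4 fell by 1.74 (SE 0.23, adjusted p = 8.3e-05), Irf8 by 0.86 (SE 0.08, adjusted p = 3.3e-06), Myb by 0.78 (SE 0.14, adjusted p = 0.00103) and Bcl11a by 0.71 (SE 0.17, adjusted p = 0.00482), all on the log2 scale, and the sixth was Stat5a at -0.28 (adjusted p = 0.0176, but 0.0531 to 0.207 under the other scalings). Spi1, which encodes PU.1 of myeloid and B cells, was at 234 ± 18.8 and 238 ± 58.8 CPM (log2 fold change 0.03, adjusted p = 0.920).

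The 2 that rose, Prdm1 and Xbp1, act in plasma cells, as does Irf4, which fell. Prdm1, which encodes Blimp-1 and is repressed by Bach2 in B cells, went from 6.44 ± 0.967 to 11.3 ± 2.39 CPM (log2 fold change 0.81, SE 0.17, adjusted p = 0.00242), and the groups did not overlap. Any part of Bach2 or of other cell types in this rise was not tested. Xbp1, the secretory regulator of plasma cells, went from 119 ± 8.30 to 210 ± 17.4 CPM (log2 fold change 0.82, SE 0.09, adjusted p = 1.5e-05). Of 5 plasma cell markers, Jchain (log2 fold change 1.35, adjusted p = 0.00108) and Sdc1 (1.16, adjusted p = 1.6e-04) rose as well, and Tnfrsf17 (0.91, adjusted p = 0.0588, but 0.0317 with library size alone), Mzb1 and Derl3 did not pass. Over all tested genes 16.3% were higher on p alone.

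Family relatives did not share the fall as a group. Of 24 relatives 21 were tested in marrow, and 7 rose, 5 fell and 9 did not pass, with a median log2 fold change of 0.12. Over all tested genes 16.3% were higher and 16.8% lower on p alone. The Id genes encode inhibitors that bind E proteins and block their attachment to DNA. Id1 went from 15.3 ± 2.10 to 28.8 ± 4.27 CPM (log2 fold change 0.91, SE 0.13, adjusted p = 1.3e-04), where Tcf3 fell. Id3 rose by 0.91 (SE 0.17, adjusted p = 0.00120) and Id4 by 0.84 (SE 0.21, adjusted p = 0.00696), and Id2 at 0.27 did not pass (adjusted p = 0.327). The cells that gave the Id transcripts were not measured, and an effect on E proteins was not tested. The other E protein genes were close to their vehicle level, with Tcf4 at -0.05 (adjusted p = 0.733) and Tcf12 at -0.28 (adjusted p = 0.0278, but 0.0789 to 0.296 under the other scalings).

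Ebf3, a paralog of Ebf1 found in marrow stromal cells, was at 50.1 ± 7.15 CPM with vehicle and 51.4 ± 9.07 CPM with oxaliplatin (log2 fold change 0.04, 95% interval -0.24 to 0.31, adjusted p = 0.856), where Ebf1 fell. Ikzf2 and Ikzf4, the Helios and Eos genes, rose by 0.45 (adjusted p = 0.00312) and 1.54 (adjusted p = 5.2e-04), where Ikzf1 and Ikzf3 fell, although Ikzf4 was low throughout (1.25 and 3.61 CPM). Bach1, the broadly expressed relative of Bach2, was at 118 CPM in both groups (log2 fold change 0.00, adjusted p = 0.993). Tcf7l1 (0.97, adjusted p = 2.6e-05) and Tcf7l2 (0.54, adjusted p = 0.00546), relatives of Lef1, rose, and Tcf7, which acts in T cells, did not pass at -0.09 (adjusted p = 0.749).

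In other families the relatives fell with the member. Foxo3 fell by 1.28 (SE 0.09, adjusted p = 3.8e-07), from 582 ± 33.5 to 239 ± 9.16 CPM, and Foxo4 by 1.32 (SE 0.10, adjusted p = 1.4e-06) on the log2 scale, and both 95% intervals (-1.47 to -1.10 and -1.54 to -1.09) lay below that of Foxo1. Foxo3 is prominent in red cell precursors. All 6 erythroid markers examined fell in the same libraries, where 16.8% of all tested genes were lower on p alone. Their part in the Foxo3 value was not tested. Pou2f2, the Oct-2 gene and a partner of the Pou2af1 product, fell by 1.08 (SE 0.10, adjusted p = 5.5e-06), and Pou2f1, the ubiquitous Oct-1 gene, by 0.45 (SE 0.10, adjusted p = 0.00476).

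**Figure D4:**
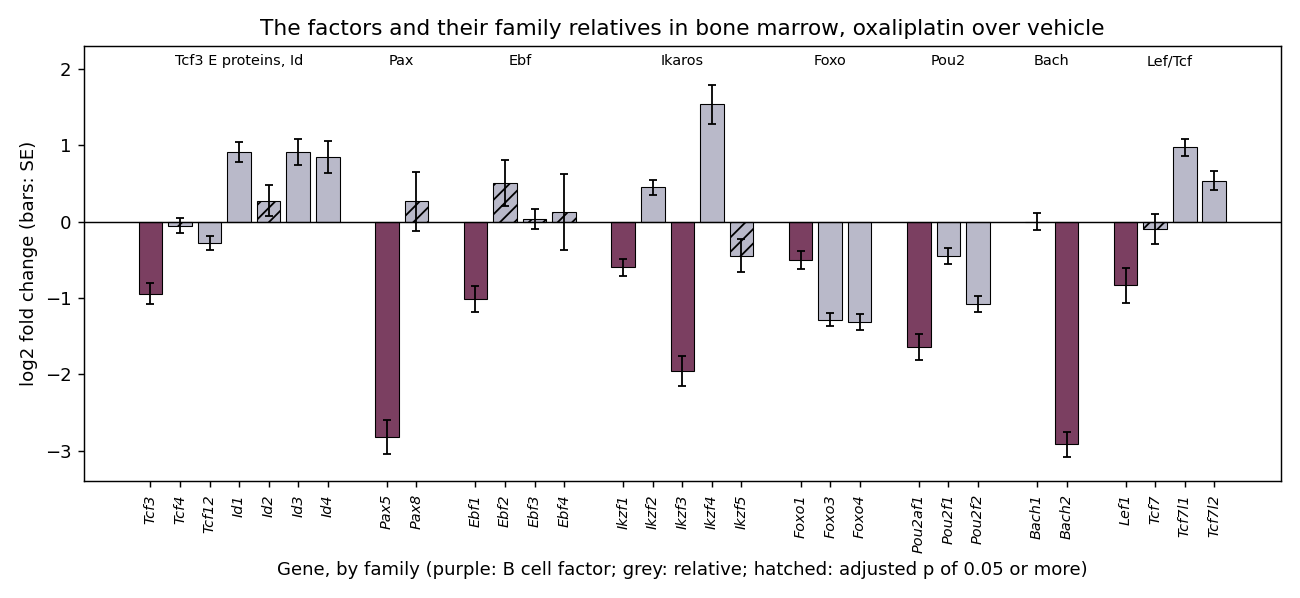
Log2 fold change of the 9 factors (purple) and their 21 tested relatives (grey) in bone marrow, oxaliplatin over vehicle, with 1 SE and hatching where the adjusted p was 0.05 or more. Purple bars all point down, from -2.91 (Bach2) to -0.50 (Foxo1), while the Id, Tcf7l and Ikzf2 and Ikzf4 bars point up.

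Markers of other cells moved in these libraries as well, and their part in the factor values was not tested. Over all tested genes 16.8% were lower and 16.3% higher on p alone. Of 4 markers of plasmacytoid dendritic cells, a cell type that also uses Spib, Irf8 and Bcl11a, 3 fell, led by Siglech at -2.82 (adjusted p = 5.6e-08), and the list's sum went from 50.6 to 61.1 CPM with vehicle to 9.46 to 15.3 CPM with oxaliplatin. Of 7 T cell markers Cd4 fell, Cd28 rose and 5 did not pass, and no T cell marker was at 0. Among 5 endothelial markers 3 rose and 2 did not pass, and 4 rose with library size alone. Of 10 stromal and adipocyte markers 8 rose, 1 fell (Lepr, at -0.49, but with an adjusted p of 0.0503 with library size alone) and 1 did not pass, and their sum was 1604 to 2104 CPM with vehicle and 2079 to 4083 CPM with oxaliplatin. Adipoq, the adiponectin gene of fat cells, went from 24.5 to 182 CPM (log2 fold change 2.89, adjusted p = 8.6e-05). Ebf1 and Foxo1 are also transcribed in stromal and fat cells.

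In vehicle-treated kidney the factors were at far lower levels than in vehicle-treated marrow, apart from Foxo1 and, to a lesser degree, Tcf3. Foxo1 measured 6.89 CPM per kb in vehicle-treated kidney, above its 4.45 in marrow, and Tcf3 12.4 against 77.0 CPM per kb. The other 7 lay between 0.0425 (Pax5) and 0.936 CPM per kb (Bach2). After oxaliplatin Bach2 was at 1.27 CPM per kb in marrow and 0.824 in kidney, with overlapping ranges. Pax5 gave 5 to 17 counts per library with vehicle and 0 to 3 with oxaliplatin, and Pou2af1 3 to 8 and 0 to 4. Neither passed the filter on low counts, so neither was tested in kidney in the fit used here. Pax5 lay at 0.203 to 0.684 CPM in the vehicle-treated kidneys and at 0 to 0.108 CPM in the treated ones, with no overlap. In a fit without the filter its log2 fold change was -2.67 (SE 0.76, adjusted p = 0.00549), or -2.34 with an adjusted p of 0.0576 without vehicle replicate 4, and that of Pou2af1 was -1.57 (SE 0.87, adjusted p = 0.246). Pax2 and Pax8, the relatives of Pax5 that kidney epithelium uses, were at 85.8 ± 6.39 and 128 ± 9.21 CPM with vehicle and did not pass (adjusted p = 0.365 and 0.333).

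Among the other 7 factors the fall seen in marrow was not the rule in kidney. Of the 7 factors tested 2 rose, 1 fell and 4 did not pass, where 11.5% of the 19293 kidney genes tested were called in either direction (7.68% higher and 3.81% lower) and, on p alone, 14.4% were higher and 15% lower. Ebf1 rose, from 6.05, 7.32, 6.74, 6.76 and 7.13 CPM with vehicle to 9.91, 10.8, 10.5, 12.46 and 13.5 CPM with oxaliplatin, with no overlap. The log2 fold change was 0.75 (SE 0.11, adjusted p = 1.3e-04). Ebf3 rose too, from 0.325 to 0.809 CPM (log2 fold change 1.30, adjusted p = 0.0135), as did 7 of the 10 stromal and adipocyte markers, Col1a1 among them (1.83, adjusted p = 2.2e-08). The summed level of that list was 248 to 285 CPM with vehicle and 338 to 430 CPM with oxaliplatin, and its part in the Ebf1 value was not tested.

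Foxo1 rose in kidney by 0.25 log2 units (SE 0.09, adjusted p = 0.0394), from 59.1, 62.9, 66.6, 54.7 and 55.1 CPM to 62.1, 62.0, 70.9, 75.9 and 82.8 CPM, with overlapping groups and less than 1.5-fold. It no longer passed without vehicle replicate 1, 4 or 5 or without treated replicate 3, 4 or 5 (adjusted p from 0.0582 to 0.101). Ikzf1 fell, from 3.29, 3.85, 6.09, 4.19 and 6.24 CPM to 2.98, 2.16, 1.76, 3.47 and 1.5 CPM (log2 fold change -0.99, SE 0.24, adjusted p = 0.00533). It rested on 49 to 154 counts per library and was called, although treated replicate 4 lay above the lowest vehicle library. Tcf3 was at 0.08 (95% interval -0.08 to 0.24, adjusted p = 0.448), Bach2 at -0.18 (-0.48 to 0.11, adjusted p = 0.345) and Ikzf3 at -0.37 (-1.17 to 0.43, adjusted p = 0.495). Lef1 at 0.88 (95% interval 0.16 to 1.61) missed the threshold with an adjusted p of 0.0625 on 11 to 67 counts per library, and passed it without vehicle replicate 4 (0.0436) or treated replicate 3 (0.0118).

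**Figure D5:**
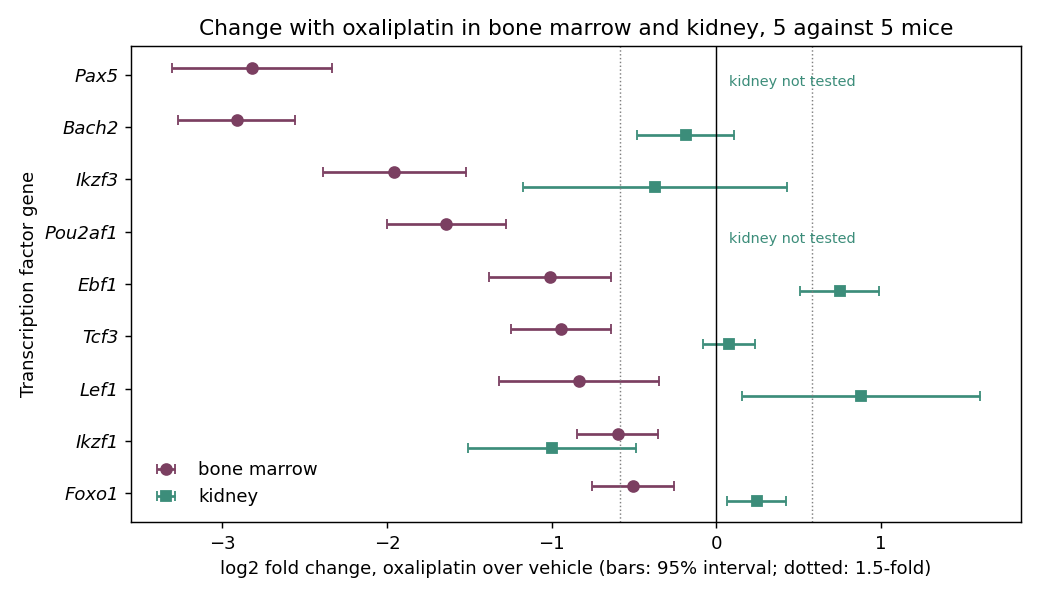
Log2 fold change of each factor in bone marrow (circles) and kidney (squares), oxaliplatin over vehicle, with 95% intervals from edgeR, and dotted lines at 1.5-fold. Marrow intervals all lie below 0, and in kidney Ebf1, Foxo1 and Lef1 lie above 0, Ikzf1 lies below it and Tcf3, Bach2 and Ikzf3 span it.

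The difference between the tissues was tested directly in a fit over all 20 libraries, as the marrow change minus the kidney change. In that test 23.7% of 24321 genes were called, 10.8% lower and 12.8% higher. For 6 factors the marrow change was the lower one and was called. The difference was -2.67 for Bach2 (SE 0.23, adjusted p = 1.4e-08), -1.70 for Ebf1 (SE 0.22, adjusted p = 3.4e-06) and -1.65 for Lef1 (SE 0.43, adjusted p = 0.00527). It was -1.52 for Ikzf3 (SE 0.41, adjusted p = 0.00694), -0.96 for Tcf3 (SE 0.18, adjusted p = 3.1e-04) and -0.69 for Foxo1 (SE 0.15, adjusted p = 9.9e-04). Ikzf1, which fell in both tissues, gave 0.45 (95% interval -0.07 to 0.98, adjusted p = 0.189). Pax5 and Pou2af1 did not pass (adjusted p = 0.998 and 0.960), and their kidney change rests on 0 to 17 and 0 to 8 counts per library.

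The genes whose marrow profile over the 10 libraries was most like each factor are given as a description, since the treatment difference is part of every such profile. Pearson's r was computed on log2 CPM over 15051 candidate genes. Ikzf3 was nearest to H2-Oa (r = 0.996), H2-Ob (0.993) and Ms4a1 (0.990), genes of antigen presentation and of mature B cells. Pou2af1 was nearest to Cd79a (0.994), Sbk1 and Cep97. Pax5 was nearest to Aff3 (0.996), Chst3 and Slc12a3, and Bach2 to Slc12a3 (0.998), Gm10603 and Nsmaf.

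Tcf3 had other neighbours, Npat (0.996), a regulator of histone genes in S phase, and Pole2 (0.996) and Pole (0.994), which encode subunits of DNA polymerase epsilon. Ebf1 was nearest to Hdac9 (0.97), Neil1 and Irf4 (0.962), Foxo1 to Cd40 (0.986), Cobll1 and Sbk1, Ikzf1 to Pcf11 (0.989), Rnf40 and Zfp646, and Lef1 to Akap12 (0.973), Ppp1r16b and Dok4. The nearest genes of Ebf1, Foxo1, Ikzf1 and Lef1 therefore had a lower r than those of the other 5.

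Annotated transcripts on the opposite strand share exon bases with some members, 7.18% of the Pax5 exon length with 5730488B01Rik and 1.41% with Gm12462, 5.4% of Bach2 with Bach2os, 7.78% of Foxo1 with Gm20402 and 13.7% of Lef1 with Gm43352. The use of strand in counting is not given in the sources used here, so reads of these stretches may belong to either partner. The tested partners that share exon bases were low and lay in the same direction as their gene, with vehicle levels of 5.45 CPM for 5730488B01Rik (log2 fold change -2.22), 4.80 CPM for Gm12462 (-3.05) and 3.09 CPM for Bach2os (-1.81).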

How the data were processed

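Total RNA of bone marrow and kidney, extracted by different kits, was depleted of ribosomal RNA and sequenced, and the tables deposited for the tissues hold unnormalised counts by gene, 55774 lines each (287 repeats and 1 line with missing values were removed). The paper names STAR, Ensembl annotation and Partek Flow, the submitters' processing notes name featureCounts and Salmon, and the use of strand is not given in the sources used here. Counts were scaled by TMM and tested with edgeR 4.0.16 (robust quasi-likelihood, R 4.3.3, filterByExpr minimum count 10), 5 against 5 libraries per tissue, with an interaction over 20. The p-values measure the spread between these samples. DESeq2 1.42.0, other scalings, filters, thresholds, a block and left-out libraries were alternatives. Log2 levels used a prior count of 2. Factors were named in full, and other genes from lists by role. The members and lists were chosen with earlier results of these data known. The list of known targets and the B cell surface reference leave out planned genes that are not reported here, so the reference of 4 genes was set after seeing the data; with the planned reference Pax5 did not pass relative to the surface genes. The most similar genes had the highest Pearson's r over the 10 marrow libraries. The test was checked on simulated counts with the same spread set for every gene, which does not show how it behaves at the spread of these libraries. All libraries differed from their replicates by more than sampling noise (lowest chi-square per degree of freedom 7.51). The 250 bases before each start came from RefSeq. Y-linked counts were present in all 20 libraries, although the study used both sexes.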

Additional observations from a re-analysis of the deposited data

Results flagged for a closer look

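For 6 factors the change with oxaliplatin differed between the tissues by the interaction test over 20 libraries (edgeR, Benjamini-Hochberg adjusted p under 0.05 for each). All 6 were also past 1.5-fold with the marrow change the lower one. Of all 24321 genes tested, 10.8% were called in that direction and 23.7% in either. The marrow change minus the kidney change was -1.70 for Ebf1, which fell in marrow and rose in kidney with no overlap of groups in either. It was -2.67 for Bach2, -1.65 for Lef1, -1.52 for Ikzf3, -0.96 for Tcf3 and -0.69 for Foxo1. In kidney Ikzf3 rested on 10 to 35 counts per library and Lef1 on 11 to 67. No factor had a single library far from the others of its group, over 36 groups of 5 examined with Dixon's criterion.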

How the results depend on the processing

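The fall of Pax5, Bach2, Ikzf3, Pou2af1 and Ebf1 in marrow kept its direction and its side of the threshold under all 21 alternatives. Under the test against a 1.5-fold change 2730 marrow genes and 454 kidney genes were called, and in marrow Foxo1 (-0.50), Ikzf1 (-0.60) and Lef1 (-0.83) and in kidney Ebf1 (0.75), Foxo1 (0.25) and Ikzf1 (-0.99) did not pass, since that test asks for more than a difference. With a 2-fold threshold 3231 marrow, 941 kidney and 3529 interaction calls were left, 5 factors were called in marrow (not Tcf3 at -0.94, Ikzf1 at -0.60 or Lef1 at -0.83), and Ebf1 (0.75) and Ikzf1 (-0.99) in kidney and Tcf3 (-0.96) and Foxo1 (-0.69) in the interaction were no longer past the fold. With Y-linked genes as a covariate Lef1 in marrow was -0.57 (adjusted p = 0.0841) and the Pax5 interaction 0.10, and with DESeq2 the latter was 0.025. Library size alone gave -0.011 for the Pou2af1 interaction, 0.21 for Tcf3 in kidney (adjusted p = 0.0390) and 1.02 for Lef1 in kidney (0.0368), and it moved the median log2 fold change of all genes from -0.04 to 0.11 in marrow and from 0.02 to 0.16 in kidney, where 82.7% of calls were higher against 66.8%. Lef1 in kidney passed with DESeq2 (0.87, adjusted p = 0.0486) and without a filter (0.88, 0.0303), a setting that also gave -2.67 for Pax5 in kidney (0.00549). Relative to the surface genes, the median as reference gave -0.21 for Ikzf3 and 0.18 for Pou2af1. Leaving Cd22 out of the reference (chosen after seeing the data) gave -0.29 for Pax5 and -0.35 for Bach2, and leaving out Cd72 gave -0.17 for Ikzf3 and 0.23 for Pou2af1, since these genes fell unequally. Where not stated, the cause was not tested.

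Leaving out 1 library at a time gave 0.19 to 0.30 for Foxo1 in kidney, 0.71 to 1.09 for Lef1 in kidney, -3.02 to -2.33 for Pax5 in kidney without the filter, -0.40 to 0.31 for the Pax5 interaction and -0.33 to 0.44 for the Pou2af1 interaction. Relative to the surface genes it gave -0.78 to -0.52 for Pax5 and 0.10 to 0.38 for Ikzf3. With both treated mice 3 and 4 left out (chosen after seeing the data) all 9 factors still fell.

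Same-numbered libraries had r from -0.15 to 0.23 after the mean of each group was removed. Differently numbered libraries were not compared. These values therefore cannot show whether marrow and kidney libraries of the same number came from the same mouse. The main interaction fit treated all 20 libraries as separate. A block was also fitted, by replicate number within a tissue and by treatment and replicate number in the interaction. Within a tissue the block joined different mice, so it is no check on whether the tissues were paired. With these blocks 4968, 2017 and 5350 genes were called in marrow, kidney and the interaction. Then 8 factors were called in marrow, and Foxo1 in kidney (0.24, adjusted p = 0.0872) no longer passed on p. The blocks changed no other factor's side of the threshold. Depth limits Pax5 and Pou2af1 in kidney, where they stayed below the count filter. No scaling turned the direction of any listed gene that had passed.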

Other observations

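Relatives and regulators that bear on the factors also moved in kidney, where 14.4% of all tested genes were higher and 15% lower on p alone. Of 24 family relatives 21 were tested there, and 8 rose, 2 fell and 11 did not pass, against 10 that rose and 1 that fell with library size alone, under which Bach1 no longer passed (-0.18, adjusted p = 0.0473, against -0.04 and 0.671). Foxo3, which fell in marrow, went from 196 ± 25.7 to 296 ± 73.6 CPM in kidney with no overlap (log2 fold change 0.59, SE 0.15, adjusted p = 0.0101), and the marrow change minus the kidney change was -1.81 (adjusted p = 5.1e-08). Pou2f1 rose in kidney by 0.57 log2 units (SE 0.11, adjusted p = 9.8e-04), with a difference between tissues of -0.96 (adjusted p = 6.8e-05). Id2 fell in kidney by 0.67 (adjusted p = 0.0293). Tcf7l1 rose in both tissues, and its difference between them did not pass (0.35, adjusted p = 0.0846).

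Prdm1 and Xbp1, which rose in marrow, did not rise in kidney. Xbp1 fell there by 0.41 log2 units (SE 0.13, adjusted p = 0.0327, but 0.102 with library size alone), and Prdm1 was at -0.70 (adjusted p = 0.0937). The marrow change minus the kidney change was 1.29 for Xbp1 (adjusted p = 2.6e-06) and 1.57 for Prdm1 (adjusted p = 0.00293). Of 3 mature B cell markers tested in kidney, Cd40 rose by 1.01 (SE 0.22, adjusted p = 0.00203), from 1.42 to 2.87 CPM, and 2 did not pass. Of 6 known targets tested there, Cd72 fell by 0.77 (adjusted p = 0.0199, but 0.0545 with library size alone), from 2.18 to 1.29 CPM, and 5 did not pass. Of 4 plasma cell markers tested in kidney, 1 rose, 1 fell and 2 did not pass.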
